A study of Mus musculus with 12 samples.

Results

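The genes described here encode the proteins of the mitochondrial ribosome, the particle that translates the few messages of mitochondrial DNA inside the organelle. They are all rows of the deposited count table whose Ensembl identifier has a protein-coding mouse symbol beginning with Mrpl or Mrps and a number, with symbols ending in -ps dropped. The rule gave 78 genes of the 27504 rows, 49 named Mrpl for the large subunit and 29 named Mrps for the small subunit, and used no measured value. Rows of 4 pseudogenes were left out.

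The mitochondrial ribosome is built from RNAs transcribed in the organelle and from proteins that are all encoded in the nucleus, made in the cytosol and imported. Its products are core subunits of the respiratory chain and of ATP synthase, on which heart muscle relies for its ATP, and inherited defects in several of these proteins, MRPL3, MRPL44 and MRPS22 among them, cause cardiomyopathy in people. Symbols do not always give the subunit: the proteins of Mrps30 and Mrps18a sit in the large subunit, and that of Mrps36 is now placed in the oxoglutarate dehydrogenase complex.

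Whole hearts of wild type C57BL/6 mice at postnatal day 45 gave 12 RNA libraries in 6 groups of 2. In the AngII arm cardiac hypertrophy was modelled with angiotensin II, the vasoconstrictor hormone of the renin system, and the sham arm was its control. Each arm held a vehicle group (the labels call the vehicle menstruum), a group given gastrodin at 5 mg/kg/day and a group given 50 mg/kg/day, by the gastric route for 7 days. Gastrodin is a phenol linked to glucose, found in the orchid Gastrodia elata. Libraries are called by arm, dose and the number from 1 to 12 in their labels. The labels do not say whether the libraries of a group came from separate animals, so the p-values reflect the spread between samples alone, which may be technical.

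Totals ran from 63.5 to 78.6 M counts, but counts outside mitochondrial genes, their nuclear copies and ribosomal RNA were 7.49 to 20.3% of these in the AngII arm and 6.34 to 10.4% in the sham arm. Each of the 78 genes passed the filter on low counts and was tested, with 65 to 3517 counts per gene and library. Library AngII 5 mg number 4 had the smallest such share of its arm, and library sham 50 mg number 12 had 11.1% of its counts in ribosomal RNA rows. The 8 cardiomyocyte markers (Tnnt2, Tnni3, Actc1, Myl2, Myl3, Ryr2, Pln and Myh6) summed to 4700 to 8210 CPM in the AngII arm and 3222 to 6002 CPM in the sham arm. The sum leaned on Myh6, with 3202 ± 1134 CPM in AngII and 1294 ± 455 CPM in sham (SD, n = 6 libraries each). Actc1 went the other way, with 336 ± 121 against 548 ± 77.8 CPM. Averaged over the 3 doses, 5 of the 8 had a log2 fold change above 0 and 3 below, with a median of 0.13 (0.10 over all genes tested). The fat marker Adipoq was at 0 in all 12 libraries. Here CPM, counts scaled to a common library size, use library sizes after TMM scaling. In RNA of whole hearts, fewer cells of a type and less RNA per cell cannot be told apart.

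The genes lay on 17 chromosomes, 11 of them on chromosome 11. In annotated exon length they were shorter than other genes, with a median of 2394 bases against 4380 over the 14098 protein-coding genes tested, and their GC content was alike (49.8% against 50.0%). A divergent protein-coding neighbour, transcribed away from the gene with its start within 1000 bases, was found for 23 of the 78 genes (29.5%), against 10.8% of the tested protein-coding genes. Pairs overlapping at their starts were kept only where the overlap was short. Mrps11 and Mrpl46, which overlap more widely at their starts, were therefore not counted. RefSeq promoters on GRCm38.p6, running from 250 bases before a start to 50 after it, were matched by symbol for 69 of the genes and numbered 75. They were searched on both strands for 3 motifs of factors known to act on mitochondrial genes. The ETS motif CCGGAAG, bound by GABP, was found in 34.7% of these promoters, 34.6% of those of cytosolic ribosomal protein genes, 11.6% of those of protein-coding genes and 8.86% of all promoters. The YY1 motif AAGATGGC was found in 16.0%, 10.3%, 3.04% and 2.74% of the same 4 sets, and the NRF1 motif GCGCATGCG in 9.33%, 3.85%, 2.35% and 1.75%. The ETS share was thus close to that of the cytosolic ribosomal protein genes. At least 1 of the 3 was in 50.7% of the genes' promoters, 15.8% of those of protein-coding genes and 12.5% of all. The motifs may overlap, and a match describes the letters, not a bound site.

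Promoter stretches of 3 genes that were lower in AngII hearts are shown because they span the range from repeated ETS matches to none of the motifs searched. Each is the longest run before the start that lies in no annotated exon, read 5′ to 3′ on the gene's strand, with motif matches in capitals. That of Mrpl43 (chr19:45006443-45006557, minus strand, 115 bases) held 2 ETS matches, that of Mrpl17 (chr7:105811100-105811337, minus strand, 238 bases) held 1, and that of Mrps12 (chr7:28741822-28741991, minus strand, 170 bases) held none of the 3 motifs. The stretches of Mrpl16, Mrps33, Mrpl50, Mrps16 and Mrps14, also lower in AngII, held none of the 3 either and are not shown. The Mrps12 stretch is the gap between Mrps12 and Sars2, the mitochondrial seryl-tRNA synthetase gene, whose starts are 172 bases apart on opposite strands.
Mrpl43: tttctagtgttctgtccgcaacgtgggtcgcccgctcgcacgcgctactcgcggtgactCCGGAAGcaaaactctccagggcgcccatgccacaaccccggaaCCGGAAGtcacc
Mrpl17: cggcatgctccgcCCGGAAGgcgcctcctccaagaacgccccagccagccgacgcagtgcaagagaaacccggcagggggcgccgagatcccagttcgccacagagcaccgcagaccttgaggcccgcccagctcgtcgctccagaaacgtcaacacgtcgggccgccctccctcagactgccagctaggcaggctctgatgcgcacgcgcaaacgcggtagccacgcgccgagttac
Mrps12: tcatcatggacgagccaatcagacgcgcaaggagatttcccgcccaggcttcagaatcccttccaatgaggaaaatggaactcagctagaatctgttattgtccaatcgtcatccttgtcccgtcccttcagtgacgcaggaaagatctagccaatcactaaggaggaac

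Levels between genes were compared only per length, in the deposited TPM, which correct for transcript length. Mrpl42 was the highest at 45.8 ± 8.04 TPM (mean ± SD, n = 12 libraries), followed by Mrps21 at 32.5 ± 18.4, Mrpl14 at 27.3 ± 13.8 and Mrpl51 at 23.6 ± 12.2 TPM. The last 3 of these do not differ beyond their spread. The lowest were Mrpl19 at 0.554 ± 0.262 TPM, Mrpl1 at 0.728 ± 0.292, Mrpl32 at 0.747 ± 0.198 and Mrpl35 at 0.855 ± 0.310 TPM, which overlapped each other. Highest and lowest thus differed 82.7-fold, although most of these proteins are present once per ribosome, and the median gene had 4.56 TPM. Mrpl12, whose protein forms the factor-binding stalk, stood at 17.6 ± 6.18 TPM, above its stalk partners Mrpl10 at 5.53 ± 2.50 and Mrpl11 at 2.18 ± 0.724 TPM. Among the 3 paralogs of the S18 protein, Mrps18a had 9.57 ± 3.76 TPM, Mrps18c 5.79 ± 1.74 and Mrps18b 4.27 ± 2.56 TPM, with overlapping spreads. Mrpl23, which lies near the imprinted Igf2 and H19 locus, was 5th in level at 21.8 ± 12 TPM, and Mrps36 had 11.1 ± 3.04 TPM.

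**Figure D1:**
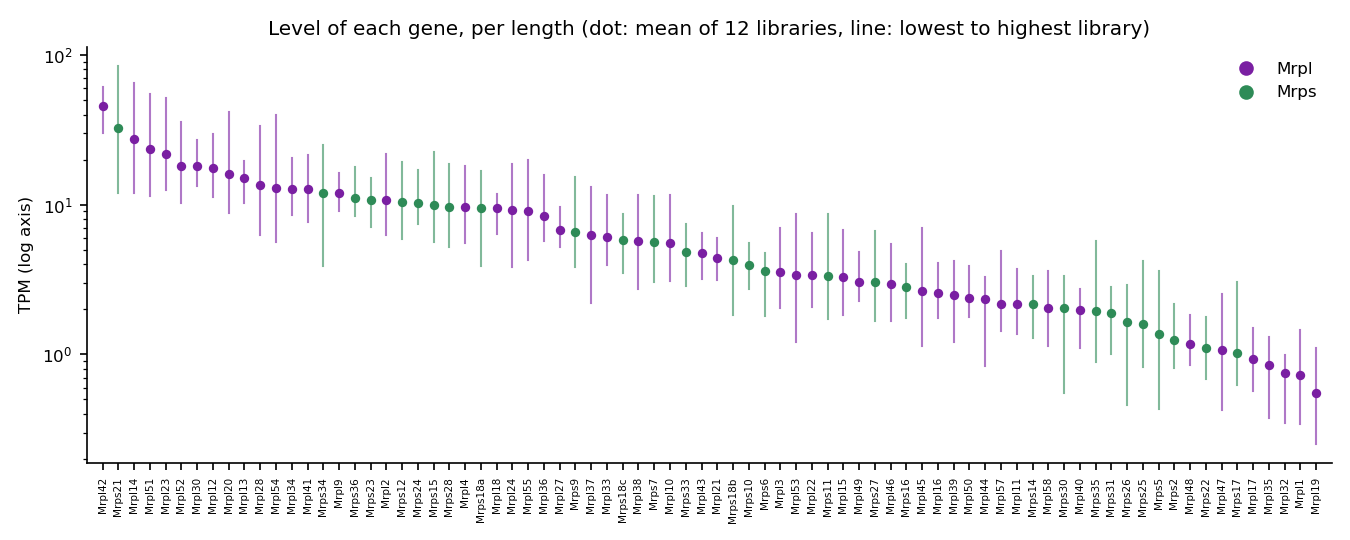
Mean TPM of the 78 genes over 12 libraries on a log axis, ordered by level, with lines from the lowest to the highest library and colours for Mrpl and Mrps symbols. Mrpl42 leads at 45.8 TPM, Mrpl19 is last at 0.554 TPM, and both families are spread along the order.

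Between the arms, averaged over the 3 doses, 10 of the 78 genes fell in AngII hearts and 1 rose. Mrpl53 fell most, Mrps5 rose, and the other falls were Mrpl16, Mrpl50, Mrps12, Mrpl27, Mrps33, Mrpl43, Mrps16, Mrpl17 and Mrps14, by 0.50 to 0.84 on the log2 scale. These 11 calls compare with 20.9% of the 16723 genes tested (13.4% higher and 7.53% lower in AngII), so the share called among the 78 was not above the background. Their direction was mostly downward: the median log2 fold change was -0.25 against 0.10 over all genes tested, and 58 of 78 lay below 0. Both families took part, with 6 falls and no rise of 49 Mrpl genes (median -0.25) and 4 falls and 1 rise of 29 Mrps genes (median -0.20). This direction holds for CPM: on log2(TPM + 1), which carries no TMM scaling (the factors ran from 0.638 to 1.99), the median was 0.28 and no gene was called. The median of all genes on log2(TPM + 1) is not given here. The 78 genes were also summed without TMM scaling, as a percentage of counts outside mitochondrial genes, their copies and rRNA. They made up 0.57 ± 0.0467% in AngII and 0.668 ± 0.0688% in sham (SD, n = 6 libraries each). The ranges overlapped, at 0.527 to 0.645% and 0.581 to 0.754%. Calls were made with edgeR's quasi-likelihood F-test fitted to all 12 libraries, 2-sided, with Benjamini-Hochberg adjustment over all genes tested and a threshold of 0.05. With the share of counts outside mitochondrial genes, their copies and rRNA as a covariate, none of the 78 genes was called and the median was -0.13; the groups differ in that share, and its part in the result was not tested.

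**Figure D2:**
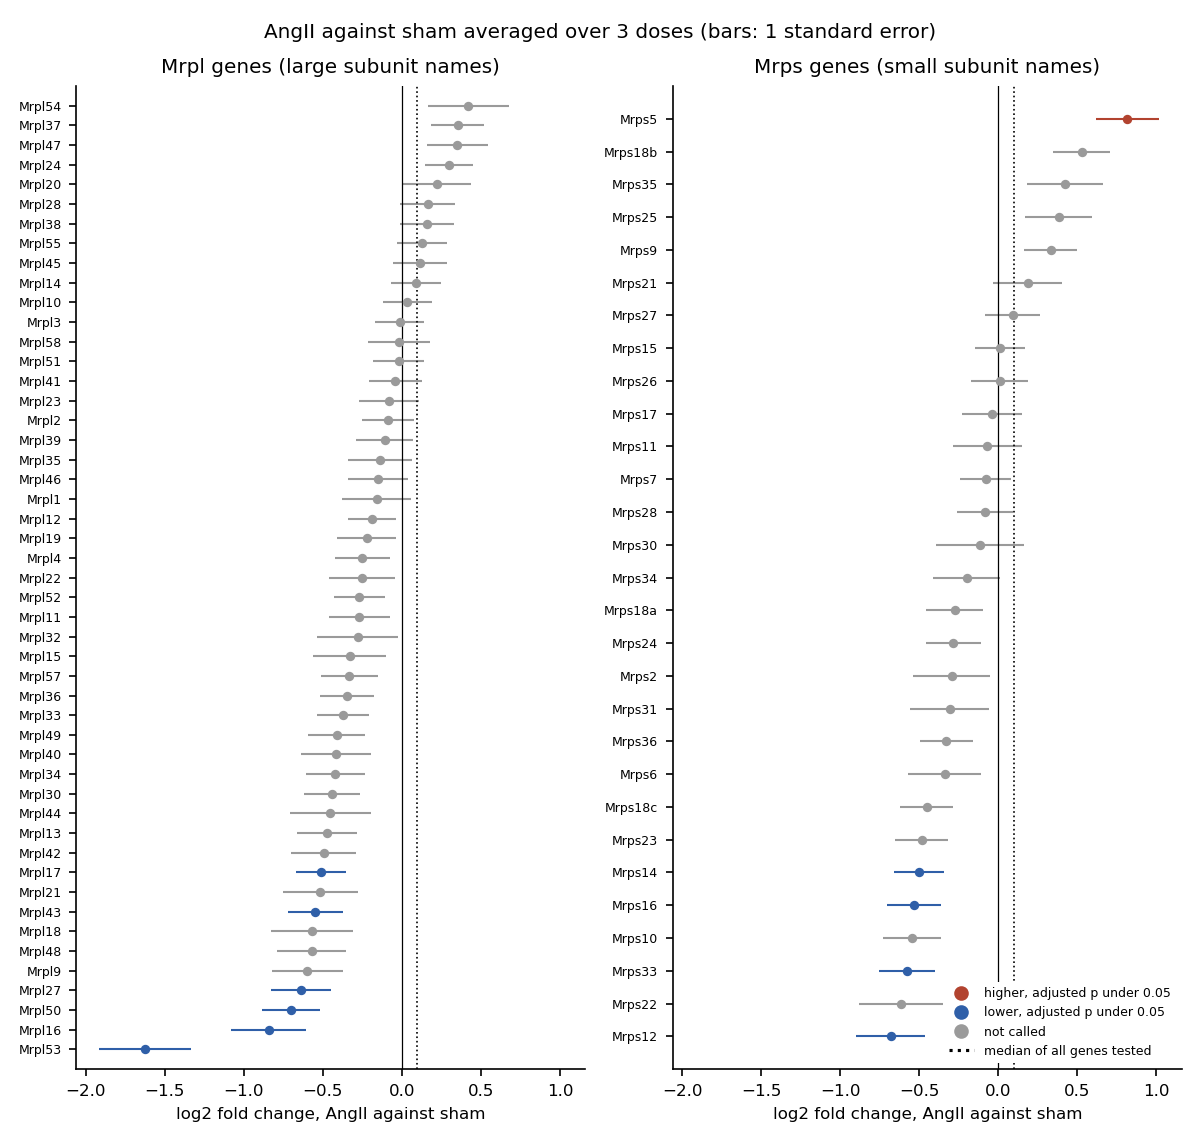
Log2 fold change of each of the 78 genes, AngII against sham averaged over 3 doses, with 1 standard error, from the edgeR fit to counts. Most points lie left of 0 and of the dotted median of all genes tested (0.10). On log2(TPM + 1) the median of the 78 genes is 0.28, and that of all genes is not given.

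Mrpl53 encodes a mitochondria-specific protein of the large subunit and lies on chromosome 6 (chr6:83109040-83109939, plus strand). It had 0.946 and 1.47 CPM in AngII vehicle, 1.06 and 2.21 CPM in AngII 5 mg and 0.959 and 0.890 CPM in AngII 50 mg. In the sham arm it had 1.25 and 2.69 CPM with vehicle, 10 and 5.52 CPM at 5 mg and 4.21 and 2.72 CPM at 50 mg. The sham 5 mg libraries were the highest, and the arms overlapped through the sham vehicle library at 1.25 CPM. The log2 fold change was -1.63 ± 0.29 (SE, edgeR adjusted p = 0.00359), and Mrpl53 was called in each of the 12 fits with 1 library left out. Mrpl53 shares exon bases with Gm42688 on its own strand, and with the counts of both summed the log2 fold change was -0.45 with an edgeR adjusted p of 0.112, so the call was lost. The part of reads shared by these genes was not tested.

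Mrps5 encodes the small subunit counterpart of bacterial S5, a protein known for its part in accurate decoding, on chromosome 2 (chr2:127587222-127606829, plus strand). Its CPM were 7.46 and 6.52 in AngII vehicle, 8.18 and 4.25 in AngII 5 mg, and 6.47 and 7.98 in AngII 50 mg. In the sham arm they were 5.59 and 4.19 with vehicle, 3.23 and 2.69 at 5 mg, and 3.90 and 4.09 at 50 mg. The AngII arm was higher in all but AngII 5 mg number 4, which lay among the sham values. The log2 fold change was 0.82 ± 0.20 (SE, edgeR adjusted p = 0.0142), and Mrps5 was also called in each of the 12 fits with 1 library left out.

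The CPM of 3 genes did not overlap between the arms, and all 3 were lower in AngII: Mrpl17, Mrpl50 and Mrps16. Of all genes tested, 7.36% had arms that did not overlap. Mrpl17, a large subunit protein near the exit of the peptide tunnel, ranged from 4.93 to 6.29 CPM in AngII (median of 5.76) and from 6.53 to 9.10 CPM in sham (median of 8.35). Mrpl50, a mitochondria-specific large subunit protein, had 3.0 to 5.15 CPM in AngII and 5.32 to 8.47 CPM in sham, with a log2 fold change of -0.70 ± 0.19 (SE, edgeR adjusted p = 0.0201). Mrps16, a small subunit protein whose loss in people causes a fatal respiratory chain defect, had 5.21 to 7.32 CPM in AngII and 7.92 to 11.4 CPM in sham. The gaps were narrow: for Mrpl17 the nearest AngII and sham libraries were 6.29 and 6.53 CPM, and for Mrpl50 5.15 and 5.32 CPM. Of the 12 fits with 1 library left out, Mrpl50 was called in 8, Mrps16 in 2 and Mrpl17 in 1.

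The other called genes overlapped between the arms. Mrpl16, a large subunit protein on chromosome 19, fell by 0.84 on the log2 scale, from 4.17 ± 0.534 CPM in sham to 2.32 ± 0.776 CPM in AngII (SD, n = 6 libraries each). Mrps12, a protein of the decoding centre, fell by 0.68 on the log2 scale, from 5.16 ± 1.88 to 3.12 ± 0.634 CPM; its sham 5 mg libraries (3.74 and 3.0 CPM) lay within the AngII range. Mrpl27, at the peptidyl transferase centre in bacteria, fell from 6.60 ± 1.25 to 4.22 ± 0.727 CPM, Mrps33 from 6.62 ± 1.25 to 4.44 ± 0.743 CPM, and Mrpl43 from 8.33 ± 1.70 to 5.62 ± 0.880 CPM. Mrps14 fell from 7.85 ± 1.84 to 5.47 ± 0.639 CPM. These falls had edgeR adjusted p from 0.0259 to 0.0438, and each was lost in at least 7 of the 12 fits with 1 library left out. Over those fits the number of calls changed with the library left out, as given further on, while the median of the 78 genes stayed between -0.27 and -0.18.

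**Figure D3:**
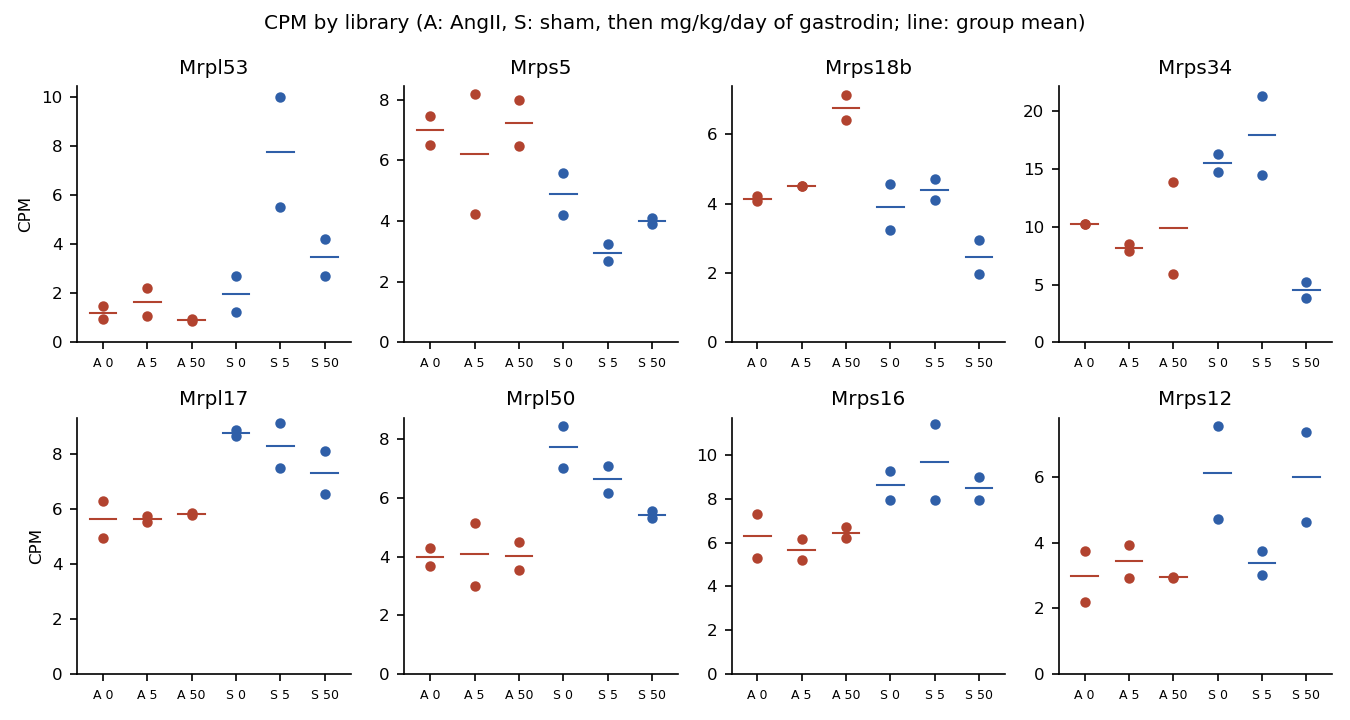
CPM of 8 genes in each library, by arm (A: AngII, S: sham) and gastrodin dose in mg/kg/day, with lines at group means. Mrpl17, Mrpl50 and Mrps16 have no overlap between arms, Mrpl53 is highest in sham 5 mg (10 and 5.52 CPM), and Mrps18b is highest in AngII 50 mg (7.13 and 6.40 CPM).

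Several genes with known disease or structural roles were not called. Mrpl3 had 8.03 ± 1.32 CPM in AngII and 8.12 ± 1.63 CPM in sham (SD, n = 6 libraries each), a log2 fold change of -0.01 ± 0.15. Mrpl44, whose protein resembles an RNase at the surface of the large subunit, had 3.0 ± 1.21 against 3.98 ± 0.805 CPM, with a log2 fold change of -0.45 ± 0.26. Mrps22 had 1.11 ± 0.440 against 1.68 ± 0.337 CPM, with a log2 fold change of -0.61 ± 0.27 (SE) and an edgeR adjusted p of 0.112. The stalk genes Mrpl10, Mrpl11 and Mrpl12 had log2 fold changes of 0.03 ± 0.16, -0.27 ± 0.19 and -0.19 ± 0.15. Mrps7, in the head of the small subunit, was at -0.08 ± 0.16, and Mrpl45, which anchors the large subunit at the inner membrane, at 0.11 ± 0.17. Mrpl23 and Mrps36 were at -0.08 ± 0.19 and -0.33 ± 0.17.

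The S18 paralogs pointed in different directions, although none was called in the averaged comparison. Mrps18b stood at 0.53 ± 0.18 (SE, edgeR adjusted p = 0.055), Mrps18a at -0.28 ± 0.18 and Mrps18c at -0.46 ± 0.17 (edgeR adjusted p = 0.071). The difference between paralogs was not tested. The genes that share exon bases with another gene on their own strand, and so have uncertain counts, were Mrpl53, Mrps18c (with Gm43511), Mrps24 (Urgcp), Mrpl51 (Mir3098), Mrpl3 (Gm38077), Mrps34 (Nme3) and Mrps6 (Slc5a3 and Gm49711). A further overlap on the opposite strand brought the number with either kind to 32, and whether reads were counted by strand is not stated in the sources used here.

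The level of the whole group was followed by its summed CPM in each library, with no test of the sum. Summed over the 78 genes, CPM were 534 and 576 in AngII vehicle, 562 and 627 in AngII 5 mg and 567 and 586 in AngII 50 mg. In the sham arm the sums were 785 and 666 with vehicle, 750 and 637 at 5 mg, and 574 and 534 at 50 mg. Both sham 50 mg libraries lay within the rounded AngII range, and the other sham libraries lay above it. The sums were 575 ± 30.6 CPM in AngII and 658 ± 97.5 CPM in sham (SD, n = 6 libraries each). The ratio of summed TPM of Mrpl to Mrps genes lay between 2.03 and 2.65 in the 12 libraries. In TPM the order differed. Sums were 661 and 527 in AngII vehicle, 1041 and 437 in AngII 5 mg and 484 and 930 in AngII 50 mg, and 505 and 618 in sham vehicle, 427 and 501 in sham 5 mg and 380 and 520 in sham 50 mg. In TPM the sham 50 mg sums overlapped those of sham vehicle and of sham 5 mg. Both sham vehicle sums lay above both sham 5 mg sums, though the nearest were close (505 and 501). The sums were highest in the AngII libraries with the largest share of counts outside mitochondrial rows.

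**Figure D4:**
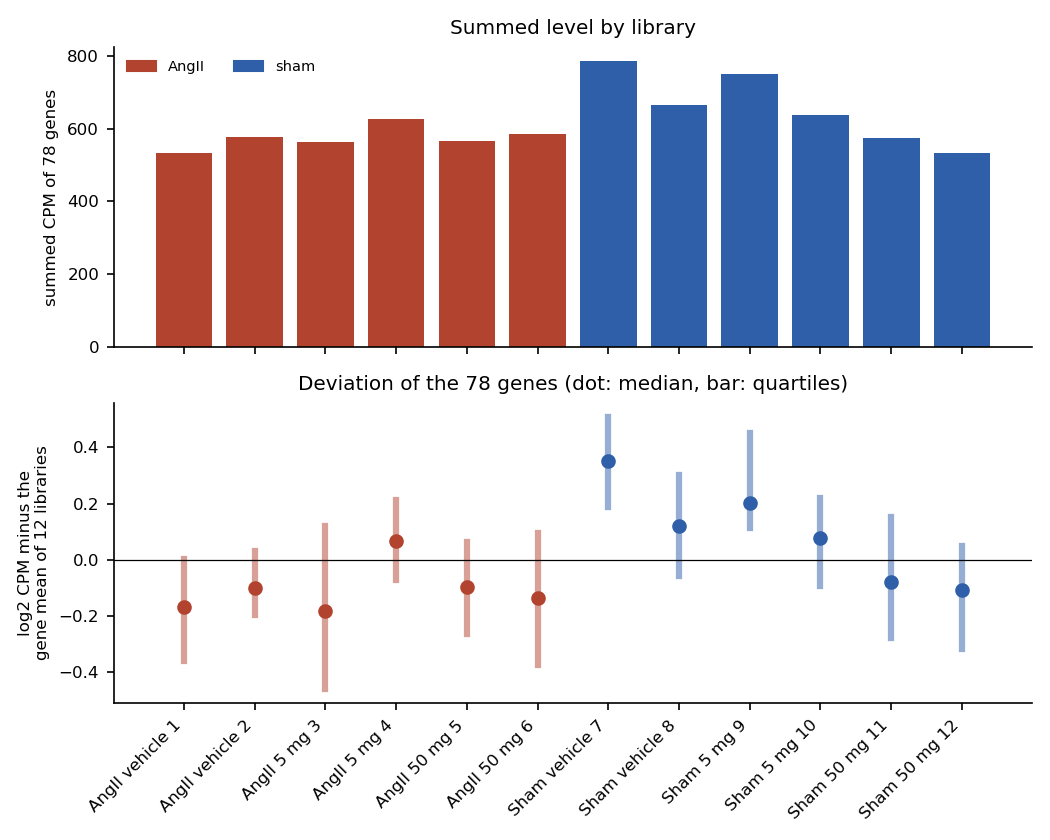
Top, summed CPM of the 78 genes in each library; bottom, median and quartiles of their log2 CPM minus each gene's mean over 12 libraries. Sham vehicle and sham 5 mg libraries lie above 0 (0.35, 0.12, 0.20 and 0.08), and the sham 50 mg libraries (-0.08 and -0.11) lie with the AngII libraries; in TPM the AngII sums reach higher (1041) than the sham sums (618).

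Markers of other cell types and tissues were summed in each library. Endothelial markers summed to 63.7 to 144 CPM in AngII and 47.7 to 68.9 CPM in sham, and smooth muscle and pericyte markers to 94.1 to 302 and 56.0 to 137 CPM. Fibroblast markers summed to 39.4 to 72.4 CPM in AngII and 53.1 to 184 CPM in sham, macrophage markers to 21.3 to 76.5 and 29.4 to 120 CPM, and red cell markers to 909 to 2934 and 255 to 1549 CPM. Lung markers summed to 1.3 to 10 CPM in AngII and 0 to 2.03 CPM in sham, liver markers to 0.254 to 54.6 and 0.100 to 39.7 CPM, and fat markers to 0.988 to 2.15 and 0.999 to 2.1 CPM. The lung sum was almost all Scgb1a1 (means of 3.93 CPM in AngII and 0.685 CPM in sham) and Scgb3a2 (0.656 and 0.0722 CPM). The lung markers Sftpc and Sftpa1 had means of at most 0.0161 CPM in either arm. The fat sum was almost all Cidea (1.71 and 1.58 CPM), with means of Ucp1, Adipoq and Plin1 of at most 0.0267 CPM. The part of all these markers in the differences of the ribosomal protein genes was not tested.

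In vehicle hearts alone, no mitochondrial ribosomal protein gene was called between AngII and sham, and 16 had an unadjusted p under 0.05. Of all genes, 0.0598% were called. The median was -0.42 against 0.06 over all genes, and 69 of 78 genes lay below 0. The smallest edgeR adjusted p were those of Mrps14 (-0.87 ± 0.27, adjusted p = 0.184), Mrpl50 (-0.96 ± 0.32, adjusted p = 0.206) and Mrps33 (-0.88 ± 0.31, adjusted p = 0.212). Mrps14 had 5.21 and 5.52 CPM in AngII vehicle and 11.2 and 8.46 CPM in sham vehicle, which did not overlap. DESeq2 called 1 gene here, lower in AngII.

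At 5 mg no gene was called between the arms, and 8 had an unadjusted p under 0.05. None of all genes was called (0.0%). The median was -0.22 against 0.09. Mrpl53 was at -2.26 ± 0.51 (SE, edgeR adjusted p = 0.251), Mrps5 at 1.07 ± 0.35 (adjusted p = 0.295) and Mrps34 at -1.13 ± 0.37 (adjusted p = 0.295). DESeq2 called 1 gene, and with libraries AngII 5 mg number 4 and sham 50 mg number 12 left out together edgeR called 3.

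At 50 mg 2 of the 78 genes were called, against 5.42% of all genes. Mrps18b rose in AngII, with 7.13 and 6.40 CPM against 2.96 and 1.98 CPM, a log2 fold change of 1.45 ± 0.32 (SE, edgeR adjusted p = 0.0245). Mrpl53 fell, with 0.959 and 0.890 CPM against 4.21 and 2.72 CPM and a log2 fold change of -1.91 ± 0.51 (SE, edgeR adjusted p = 0.0469). The median of the 78 was -0.02 against 0.03 over all genes, with 38 above and 40 below 0. The Mrpl median was -0.16 and the Mrps median 0.14. With overlapping genes summed or limma-voom only the rise was called, and neither was on log2(TPM + 1); leaving out single libraries gave 0 to 3 calls. Whether the arm difference changed with dose is tested by the interactions given further on.

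Within the AngII arm gastrodin gave no call at either dose. At 5 mg against vehicle the median was 0.14 (0.02 over all genes), 56 of 78 genes lay above 0, 1 gene had an unadjusted p under 0.05, and 0.00598% of all genes were called. That gene was Mrps17, with 3.41 and 3.83 CPM in vehicle and 7.70 and 6.37 CPM at 5 mg, a log2 fold change of 0.96 ± 0.33 and an edgeR adjusted p of 1.0. Mrpl45 (0.54 ± 0.30) and Mrpl57 (0.49 ± 0.31) followed. At 50 mg the median was 0.05 (0.00 over all genes) and 0.012% of all genes were called. Mrps18b had 4.06 and 4.23 CPM in vehicle and 7.13 and 6.40 CPM at 50 mg, which did not overlap, with a log2 fold change of 0.71 ± 0.31 and an edgeR adjusted p of 1.0; it was the 1 gene with an unadjusted p under 0.05. Mrpl44 (-0.92 ± 0.45) and Mrpl15 (-0.71 ± 0.40) followed. Both comparisons share the AngII vehicle libraries.

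In the sham arm 5 mg gave no call, against 0.0179% of all genes, with 2 genes at an unadjusted p under 0.05. The median was -0.10 (0.00 over all genes). Mrpl53 had the smallest p, at 1.97 ± 0.50 (SE, edgeR adjusted p = 0.867), from 1.25 and 2.69 CPM to 10 and 5.52 CPM, and then came Mrps12 (-0.86 ± 0.38) and Mrps5 (-0.72 ± 0.35). At 50 mg the median was -0.38 (0.00 over all genes) and 71 of 78 genes lay below 0, 11 of them at an unadjusted p under 0.05, but none passed the adjusted threshold, against 0.149% of all genes. Other lists shifted too, with medians of -0.535 for mitochondrial translation factors, -0.477 for nuclear complex I subunits and -0.63 for the cardiomyocyte markers. Fibroblast and macrophage markers had medians of 0.945 and 1.295. The part of these shifts in the fall was not tested. Both sham comparisons share the sham vehicle libraries.

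Mrps34, a mitochondria-specific small subunit protein whose loss in people causes Leigh syndrome, had the smallest p in sham 50 mg against vehicle. It had 14.7 and 16.3 CPM in sham vehicle, 21.3 and 14.5 CPM in sham 5 mg and 5.22 and 3.87 CPM in sham 50 mg. In AngII it had 10.2 and 10.2 CPM with vehicle, 8.47 and 7.87 CPM at 5 mg and 5.94 and 13.9 CPM at 50 mg. The sham 50 mg libraries were the lowest of all 12. The log2 fold change at 50 mg in sham was -1.77 ± 0.38 (SE, edgeR adjusted p = 0.129). Mrpl14, an intersubunit bridge protein, followed at -1.01 ± 0.28 (adjusted p = 0.268), with 25.2 and 17.5 CPM in sham vehicle and 11.3 and 9.96 CPM at 50 mg, and then Mrps26 at -1.07 ± 0.32 (adjusted p = 0.321). DESeq2 called 2 genes in this comparison, and fitting only the 2 groups compared called 1.

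The interactions ask whether the arm difference changed with dose. None of the 78 genes was called at 5 mg, where 0.00598% of all genes were called and 4 of the 78 had an unadjusted p under 0.05, or at 50 mg, where 0.0299% were called and 6 had one. The medians were 0.25 at 5 mg (0.03 over all genes) and 0.44 at 50 mg (-0.03 over all genes), with 67 of 78 genes above 0 at 50 mg. At 50 mg Mrps34 stood at 1.73 ± 0.53 (SE, edgeR adjusted p = 0.526), Mrps18b at 1.36 ± 0.45 (adjusted p = 0.606) and Mrpl37 at 1.01 ± 0.41 (adjusted p = 0.676). At 5 mg Mrps17 stood at 1.20 ± 0.46, Mrpl19 at 1.04 ± 0.46 and Mrpl53 at -1.54 ± 0.70, each with an edgeR adjusted p of 1.0. The interactions share the vehicle libraries of both arms with the comparisons above.

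Genes of other steps in mitochondrial translation, and of mitochondrial transcription and DNA replication, were taken from lists and compared in the averaged contrast. In that contrast 13.4% of all genes tested were called higher and 7.53% lower. Of 25 genes for assembly of the ribosome and modification of its RNA, 6 rose in AngII and none fell, with a median of 0.50. The 6 were the methyltransferase-like Mettl17 (1.05 ± 0.21, edgeR adjusted p = 0.00671), the helicase Dhx30 (1.03 ± 0.21), the GTPase Mtg2 (0.92 ± 0.19), Mrm1, Rcc1l and Eral1. Of 22 genes for charging tRNAs 3 rose (Sars2, Vars2 and Aars2, by 0.92 to 1.04 on the log2 scale) and 1 fell (Kars, which also serves the cytosol, -0.60 ± 0.19). The 22 were aminoacyl-tRNA synthetases and the amidotransferase genes Qrsl1, Gatb and Gatc. Of 16 translation factors Gfm2, a recycling factor, rose by 0.96 on the log2 scale, and of 5 other proteins of the ribosome Ptcd3 rose by 0.73. Among 17 genes of mitochondrial transcription, mitochondrial DNA replication and their regulators, 4 rose and 1 fell. The rises were Polrmt, the mitochondrial RNA polymerase, at 1.56 ± 0.24, Polg, a mitochondrial DNA polymerase gene, Ppargc1b and Esrra. Tfam, which packs mitochondrial DNA, fell at -0.91 ± 0.22. The RNAs of the ribosome, mt-Rnr1 and mt-Rnr2, stood at -0.80 ± 0.34 and -0.72 ± 0.33 and were not called. None of the 13 messages that the ribosome translates was called either, with a median of -0.56.

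Sars2 and Mrps12 share the gap between starts shown above and were called in opposite directions. Sars2 rose from 2.19 ± 0.634 CPM in sham to 4.37 ± 0.985 CPM in AngII (SD, n = 6 libraries each), a log2 fold change of 1.04 ± 0.21 (SE, edgeR adjusted p = 0.00672), while Mrps12 was at -0.68 ± 0.22 (SE, edgeR adjusted p = 0.0438). Of the 23 divergent neighbours 22 were tested, of which 10 rose and 2 fell in AngII, beside 13.4% higher and 7.53% lower over all genes tested. The neighbours' median was 0.54 and that of their 22 ribosomal protein genes -0.31. Mrps5 and its neighbour Zfp661, a zinc finger gene, rose together (Zfp661 at 2.16 ± 0.64), and Mrps18b lies 45 bases from Ppp1r10, which rose at 1.5 ± 0.26. Fau, beside Mrpl49, and Psma2, beside Mrpl32, were the neighbours that fell, at -0.66 ± 0.19 and -0.61 ± 0.17. By promoter motif, the median averaged log2 fold change was -0.44 for the 26 genes with an ETS match. It was -0.28 for the 12 genes with YY1 and -0.25 for the 7 with NRF1, and these sets share genes. For the 31 genes with a promoter and none of the 3 motifs it was -0.12. These are descriptions, without a test, and on log2(TPM + 1) the median of all 78 is 0.28.

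The cytosolic ribosome, complex I of the respiratory chain and the proteasome served as other complexes for comparison, with genes taken by symbol pattern. The patterns also took in a few genes whose proteins are not subunits of these complexes, such as Rps19bp1, Ndufa4 and Psmc3ip. Of 84 cytosolic ribosomal protein genes tested 54 fell and 1 rose in the averaged comparison, with a median of -0.63, beside 7.53% lower and 13.4% higher over all genes tested. Their summed CPM were 3998 ± 923 in AngII and 6132 ± 410 in sham (SD, n = 6 libraries each). In sham 50 mg against vehicle the cytosolic median was 0.10 and the mitochondrial one -0.38. Nuclear complex I subunits had a median of 0.08 between arms and -0.48 in sham 50 mg against vehicle, and proteasome subunits -0.42 and -0.16. These differences between lists were not tested.

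**Figure D5:**
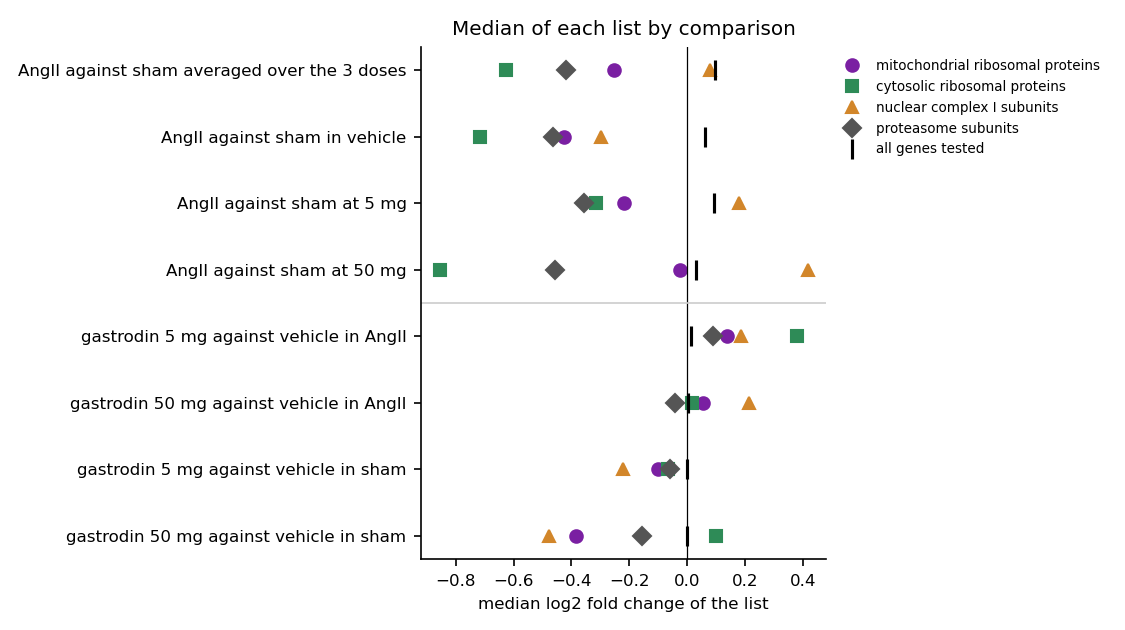
Median log2 fold change of 4 lists and of all genes tested in 8 comparisons, from the edgeR fit to counts. The mitochondrial ribosomal proteins are at -0.25 in the averaged comparison, near 0 between arms at 50 mg (-0.02) and at -0.38 in sham 50 mg against vehicle. On log2(TPM + 1) their averaged median is 0.28, and that of all genes is not given.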

How the data were processed

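Heart RNA (RNeasy Plus Mini kit) was made into TruSeq RNA libraries and sequenced in pairs, per the labels' protocols. The authors deposited raw counts per gene and, for each library, TPM. HISAT2 2.2.1 and StringTie 2.1.3 are named in the submitters' processing notes with GRCm38.p6; their roles, the counting program and its strand setting are not stated in the sources used here. Symbols and positions came from GENCODE M21 on GRCm38 and promoters from RefSeq on GRCm38.p6.

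Counts entered edgeR 4.0.16 (R 4.3.3): filterByExpr (16723 genes), TMM scaling, 1 mean per group over 12 libraries, quasi-likelihood F-test. A standard error is the absolute log2 fold change over the square root of F. Deviations by library use log2(CPM + 0.5). The test was also run on counts simulated from its own fitted model, which cannot show whether that model fits these data. Alternatives used DESeq2 1.42.0, limma 3.58.1 and log2(TPM + 1).

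The genes and lists were chosen with earlier results of these data known. The rule for named genes took fixed genes of known role, the 6 called genes with the largest rise and the 6 with the largest fall (the 10 falls are all named here), the called genes or 3 smallest p elsewhere, same-strand overlaps and the 4 highest and lowest levels; other names were chosen with their values in view. Of the translation factor list, 16 of 17 genes were matched. No count column was without a sample.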

Additional observations from a re-analysis of the deposited data

Results flagged for a closer look

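Of 60 values examined by arm, 2 had a library far from the other 5 of its arm, and chance flags about 1 in 20 groups. Both were in library AngII 5 mg number 4. Mrps22 had 1.98 CPM there against 0.800 to 1.10 CPM in the other AngII libraries, a gap of 0.746 of the arm's range, above Dixon's critical value for 6 libraries. The median deviation of the 78 genes was 0.0683 there against -0.182 to -0.098 in the others, a gap of 0.664 of the range.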

How the results depend on the processing

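No paired analysis was possible because the library numbers run from 1 to 12 and no 2 groups share one. Of the counts of called genes, the averaged AngII comparison (11) gave 0 with the share of counts outside mitochondrial rows as a covariate and 0 on log2(TPM + 1), and 17 with the length trend removed or with libraries 4 and 12 left out together; single libraries left out gave 2 to 23. AngII against sham in vehicle (0) gave 1 with DESeq2. At 5 mg (0) it gave 1 with no filter or DESeq2 and 3 without libraries 4 and 12, and 0 to 3 with single libraries left out. At 50 mg (2) it gave 1 with the covariate, with the length trend removed, with overlapping genes summed, without libraries 4 and 12 and with limma-voom, 0 on log2(TPM + 1) and 4 with DESeq2, and 0 to 3 with single libraries left out. Gastrodin against vehicle in sham gave 1 at 5 mg with no filter, and at 50 mg (0) it gave 2 with no filter or DESeq2, 1 with only the groups compared, and 0 to 1 with single libraries left out. The median of the averaged comparison (-0.25) reversed to 0.28 on log2(TPM + 1), as did Mrpl43 and Mrps33 (0.04), Mrpl17 (0.05), Mrps16 (0.07) and Mrps14 (0.08). Causes were not tested. The share of all genes called under each of these settings is not given here, so these counts have no background beside them. With 2 libraries per group, changes smaller than those called may be missed.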

Other observations

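Of the 4 pseudogene rows left out, Mrpl23-ps1 (6 to 125 counts per library) and Mrpl48-ps (34 to 118) were tested in the averaged AngII comparison and stood at 0.87 ± 0.59 and -0.71 ± 0.35 on the log2 scale (SE), with edgeR adjusted p of 0.297 and 0.166. Mrps36-ps1 and Mrps36-ps2 had at most 10 and 6 counts in any library and were not tested.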
